A study of Mus musculus with 12 samples.

Results

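The contactin-associated protein-like genes encode membrane proteins of the neurexin superfamily, and 6 of them, Cntnap1, Cntnap2, Cntnap4, Cntnap5a, Cntnap5b and Cntnap5c, were followed in mouse cortex by their non-CG methylation (mCH), that is, methylated cytosine in any context other than CG. They were chosen by name among the 23882 genes of the files (RefSeq rows NM_016782, NM_001004357, NM_130457, NM_001077425, NM_172851 and NM_001081653), and all 6 belonged to the 19826 genes with at least 500 cytosine calls in every library. Whole-genome bisulfite sequencing, in which an unmethylated cytosine is read as thymine, was run on cortex of C57BL/6 mice in 12 libraries. The groups were 4 libraries labelled miR29 KO and 4 WT libraries at postnatal day 40 (P40), and 2 libraries labelled Dnmt3a mi5 and 2 WT libraries at 4 months. The sample titles of the mi5 libraries read DNMT3AmiR29MUT, neither the deleted miR-29 loci nor the cells that carry the deletion are named, and the term "mi5" is not explained in the labels. Nothing in the labels says that the replicates came from separate animals, so p-values measure only the spread between these libraries, which may be technical. A level here is the number of methylated non-CG calls of a gene body divided by all its non-CG calls, in percent, so genes of different length can be compared.

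Caspr, the product of Cntnap1, joins the axon to the myelin loops beside the node of Ranvier, together with contactin-1 and a glial form of neurofascin. Caspr2, the product of Cntnap2, lies just outside that junction, where it holds voltage-gated potassium channels of the Kv1 class together with contactin-2, and human CNTNAP2 is linked to epilepsy and autism. Cntnap4 has been studied in mouse interneurons and dopamine neurons, and Cntnap5a, Cntnap5b and Cntnap5c are the rodent relatives of human CNTNAP5. In the brain mCH builds up after birth, mainly in neurons and mainly at CA dinucleotides. It is laid down by the DNA methyltransferase DNMT3A, and gene-body mCH is known to go with lower expression. In bulk cortex a level is a mean over all cell types, so a change within cells and a change in cell makeup cannot be told apart.

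MicroRNAs of the miR-29 family are named in the labels of both mutants, and their mature sequences are shown because both mutants are named for them. The sequences are RefSeq's on GRCm38.p6, written 5′ to 3′, with the seed (bases 2 to 8) in capitals. All 3 have the same seed.
mmu-miR-29a-3p: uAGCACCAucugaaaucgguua
mmu-miR-29b-3p: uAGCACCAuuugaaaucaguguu
mmu-miR-29c-3p: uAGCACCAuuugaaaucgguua

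The 6 genes had 7 rows, because Cntnap2 was listed with a long and a short transcript (NM_001004357 and NM_025771). The 300 bases around each of their starts (250 before and 50 after, RefSeq on GRCm38.p6, plus strand) are shown because the short transcript allows the level to be read in a part of the gene. CA dinucleotides are in capitals.
Long transcript, chr6:45059811-45060110: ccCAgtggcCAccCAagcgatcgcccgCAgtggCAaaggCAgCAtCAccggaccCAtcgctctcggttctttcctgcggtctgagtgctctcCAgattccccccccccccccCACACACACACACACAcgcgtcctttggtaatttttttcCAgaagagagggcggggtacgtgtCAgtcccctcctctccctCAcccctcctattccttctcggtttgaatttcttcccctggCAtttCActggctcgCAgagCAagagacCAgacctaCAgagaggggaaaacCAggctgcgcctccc
Short transcript, chr6:47244146-47244445: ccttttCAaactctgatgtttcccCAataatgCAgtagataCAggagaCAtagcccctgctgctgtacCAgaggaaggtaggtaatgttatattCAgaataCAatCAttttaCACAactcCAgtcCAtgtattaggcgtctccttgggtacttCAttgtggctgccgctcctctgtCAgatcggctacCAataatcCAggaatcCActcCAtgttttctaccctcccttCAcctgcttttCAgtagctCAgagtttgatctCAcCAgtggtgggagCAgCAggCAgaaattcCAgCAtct
The window of the long transcript held 28 CA, 11 TG (CA on the other strand) and 14 CG. That of the short transcript held 29 CA, 18 TG and 3 CG. Over 32851 windows of that length the medians were 20 CA, 20 TG and 7 CG, and 94.6% of windows held at least 1 CG, while rounding to whole percent CA and TG were each in 100% of them. The motifs searched were CA, TG and CG on the printed strand, none of which can overlap another; the counts describe these windows only.

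Facts of the series that bear on these genes are few. Total non-CG calls over all genes ranged from 399563492 to 732985426 per library. The median gene of a library had a level of 1.63% to 2.39% in miR29 KO cortex and 1.21% to 1.44% in WT cortex at P40, and of 2.20% to 2.22% in mi5 cortex and 1.21% to 1.23% in WT cortex at 4 months. KO replicate 4, at 1.63%, lay lowest among the KO libraries. As a check of the genotype labels, calls over the 4 miR-29 genes summed to 6 to 69 per KO library, against 121 to 244 per WT library at P40, and to 129 and 106 per mi5 library, against 151 and 200 per WT library at 4 months. In 4 libraries, 1 per group (KO replicate 3 and WT replicate 2 at P40, mi5 replicate 1 and WT replicate 2 at 4 months), Y-linked genes had low coverage.

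The members other than Cntnap1 have very long gene bodies and so very many calls. Cntnap2 averaged 1294725 calls per library and ranked 2 among all tested genes. Cntnap5a (568293 calls, rank 52), Cntnap5b (460724, rank 89) and Cntnap5c (349040, rank 145) also fell in the 1% of genes with most calls, and Cntnap4 (171422 calls) was at rank 551. Cntnap1 is short, with 7537 calls, fewer than most tested genes (38% of genes had fewer still). Counting error alone was thus small for Cntnap2, whose 95% Wilson interval in WT replicate 1 at P40 ran from 1.595% to 1.634%, and larger for Cntnap1, at 0.526% to 0.866% there. These intervals cover counting error only.

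At P40 the question was whether loss of miR-29 changed mCH over these genes. Of the 6 genes, 5 rose in the miR29 KO cortex (adjusted p under 0.05), where 76.5% of all tested genes rose and 0.0454% fell, and no member fell. The 5 that rose were the long ones, each to between 1.6 and 1.68 times its WT level. Cntnap1 did not pass the test. All p-values of single genes below come from a quasi-binomial logistic model with limma-moderated dispersion, fitted to all genes and adjusted over all of them by Benjamini-Hochberg.

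Cntnap1, whose protein closes the paranode, had the lowest level of the 6 genes in all 12 libraries. Its level was 1.05%, 1.002%, 0.748% and 0.802% in KO replicates 1 to 4, against 0.675%, 0.646%, 0.711% and 0.983% in WT replicates 1 to 4. The groups overlapped, since WT replicate 4 lay above KO replicates 3 and 4. The means were 0.901% ± 0.149 in the KO and 0.754% ± 0.155 in WT (SD, n = 4 each), with a log2 odds ratio of 0.26 (SE 0.208, 95% interval -0.17 to 0.70, adjusted p = 0.25). In RefSeq on GRCm38.p6 the gene overlaps Ccr10, so some calls may be shared.

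Cntnap2 reached 3.47%, 3.23%, 3.04% and 2.34% in the KO libraries, against 1.61%, 2.07%, 1.90% and 1.63% in WT. The lowest KO library, replicate 4, still lay above the highest WT library, replicate 2. The means were 3.02% ± 0.484 in the KO and 1.80% ± 0.222 in WT (SD, n = 4 each), a difference of 1.22 points, and the log2 odds ratio was 0.78 (SE 0.127, adjusted p = 6.14e-05). A two-sided exact permutation test gave p = 0.0286, the smallest that 4 libraries against 4 allow. Cntnap2, Cntnap4, Cntnap5a, Cntnap5b and Cntnap5c shared this p, because in each the KO libraries lay wholly above WT, as they did in 57.1% of all tested genes (wholly below in 0.0504%).

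Cntnap4 reached 3.30%, 3.03%, 2.79% and 2.28% in the KO libraries, against 1.54%, 1.91%, 1.77% and 1.62% in WT, without overlap. Its log2 odds ratio was 0.77 (SE 0.124, adjusted p = 5.91e-05), and its means were 2.85% ± 0.434 in the KO and 1.71% ± 0.161 in WT (SD, n = 4 each). The Cntnap5 genes were likewise higher in every KO library than in any WT library; since their sequences are related, calls could be split among them by mapping. Cntnap5a had 3.40%, 3.13%, 3.03% and 2.36% in the KO, against 1.72%, 2.17%, 1.96% and 1.602% in WT (log2 odds ratio 0.71, SE 0.123, adjusted p = 8.44e-05). Cntnap5b had 3.08%, 2.83%, 2.68% and 2.05% in the KO, against 1.44%, 1.88%, 1.71% and 1.46% in WT (log2 odds ratio 0.74, SE 0.132, adjusted p = 8.92e-05). Cntnap5c had 3.36%, 2.97%, 2.77% and 2.12% in the KO, against 1.55%, 1.97%, 1.67% and 1.47% in WT (log2 odds ratio 0.78, SE 0.136, adjusted p = 8.51e-05). In each of these genes KO replicate 1 was the highest library and KO replicate 4 the lowest of its group.

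**Figure D1:**
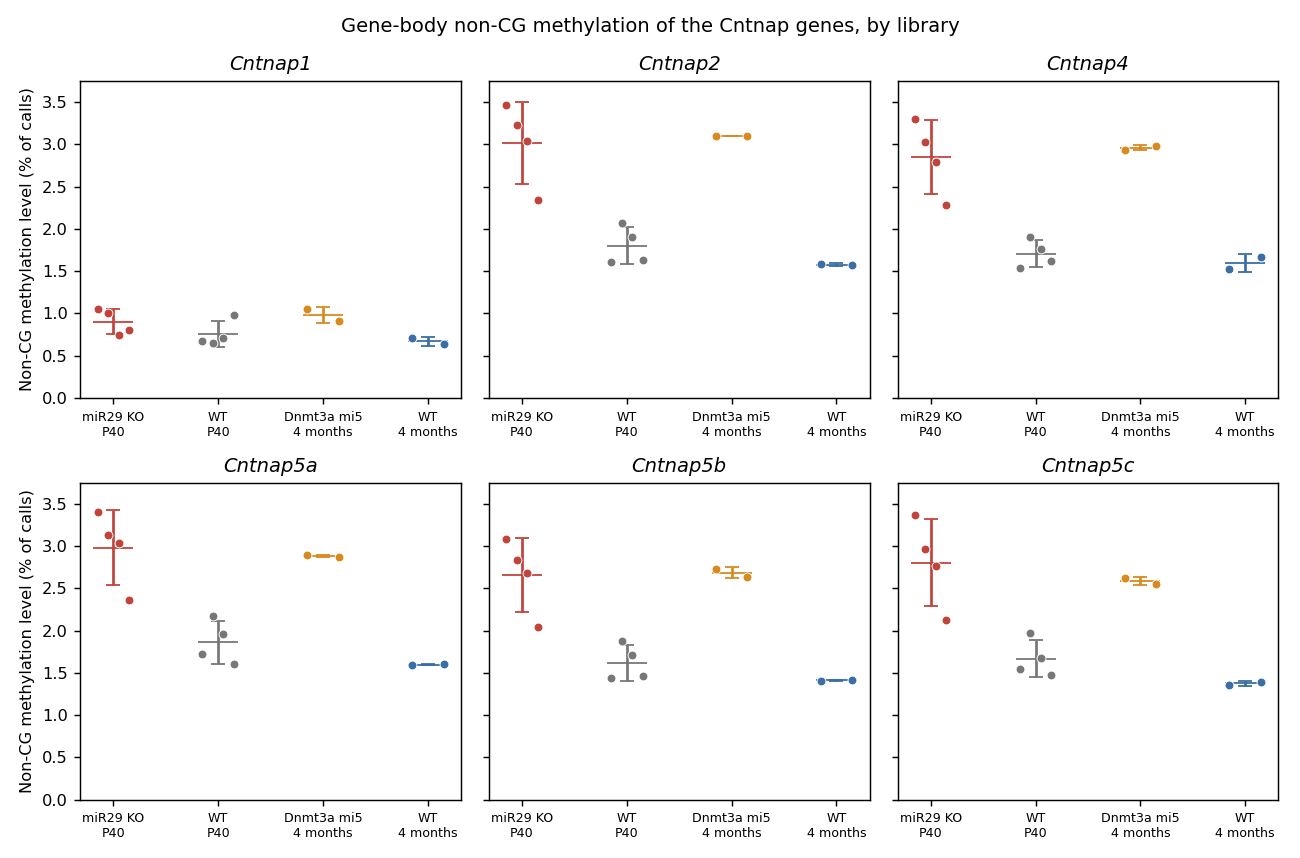
Non-CG methylation level (y axis, percent of calls) of each Cntnap gene in the 12 libraries, by group; points are libraries, and bars give the mean and SD. In the 5 long genes every mutant library lies above every WT library of its age. Cntnap1 lies between 0.634% and 1.05% in all groups, and its mutant and WT libraries overlap at P40 but not at 4 months.

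The 5 calls at P40 were kept whichever library was left out, with a log2 odds ratio of Cntnap2 from 0.70 to 0.88. In those runs 13863 to 16003 of all 19826 genes were higher in the KO and 4 to 21 lower. Among libraries with coverage of Y-linked genes (3 KO, 3 WT) the ratio of KO to WT means was 1.76 for Cntnap2, 1.75 for Cntnap4, 1.68 for Cntnap5a, 1.73 for Cntnap5b, 1.80 for Cntnap5c and 1.21 for Cntnap1. With 1 KO and 1 WT library of low Y-gene coverage it was 1.47, 1.46, 1.40, 1.43, 1.40 and 1.16 in the same order.

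At 4 months the same was asked of the Dnmt3a mi5 allele. Again 5 of the 6 genes rose, where 58.8% of all tested genes rose and 0% fell. The long genes reached between 1.80 and 1.97 times their WT level, and Cntnap1 did not pass. With 2 libraries against 2, an exact permutation test cannot go below the p = 0.333 that each gene gave, and the model borrows its estimate of spread from all 12 libraries.

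Cntnap2 had 3.10% and 3.10% in the mi5 libraries, against 1.59% and 1.57% in WT. The means were 3.10% ± 0.000256 in mi5 cortex and 1.58% ± 0.0140 in WT (SD, n = 2 each), and the log2 odds ratio was 0.997 (SE 0.213, 95% interval 0.55 to 1.44, adjusted p = 0.003). The agreement of the 2 mi5 libraries was closer than counting error, whose 95% Wilson interval ran from 3.07% to 3.14% in each. Cntnap4 had 2.94% and 2.98% in mi5 cortex, against 1.52% and 1.67% in WT (log2 odds ratio 0.92, SE 0.213, adjusted p = 0.00318). For neither gene did the groups overlap, and the mutant libraries lay wholly above WT in 86.2% of all tested genes and wholly below in 1.03%.

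Cntnap5a had 2.89% and 2.87% in mi5 cortex, against 1.591% and 1.604% in WT (log2 odds ratio 0.87, SE 0.221, adjusted p = 0.00428). Cntnap5b had 2.73% and 2.64%, against 1.41% and 1.42% in WT (log2 odds ratio 0.95, SE 0.235, adjusted p = 0.00387). Cntnap5c had 2.62% and 2.55%, against 1.36% and 1.40% in WT (log2 odds ratio 0.93, SE 0.254, adjusted p = 0.006). The Cntnap5c call was lost without WT replicate 1 of 4 months (log2 odds ratio 0.91, adjusted p = 0.06), and the other 4 calls were kept whichever library was left out. With a library left out, 4672 to 13328 of all 19826 genes were higher in mi5 cortex and 0 to 1 lower.

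Cntnap1 had 1.05% and 0.917% in mi5 cortex, against 0.710% and 0.634% in WT, with 3334 to 5356 calls per library. Both mi5 libraries lay above both WT libraries, but the log2 odds ratio of 0.53 had an interval of -0.36 to 1.43 (SE 0.427, adjusted p = 0.276). The log2 odds ratio of Cntnap2, 0.997, lay within this interval. Among libraries with coverage of Y-linked genes, 1 mi5 and 1 WT library, the ratio of levels was 1.95 for Cntnap2, 1.96 for Cntnap4, 1.80 for Cntnap5a, 1.88 for Cntnap5b and Cntnap5c each, and 1.29 for Cntnap1. Between the libraries with low coverage it was 1.98, 1.76, 1.80, 1.93, 1.87 and 1.66 in the same order. With only the covered libraries in the model, no 4-month call of a member remained (adjusted p of the long genes from 0.111 to 0.137).

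Most genes rose in both mutants, so the members were also set against the shift common to all genes. The median log2 odds ratio of all tested genes was 0.65 in the KO and 0.83 in mi5 cortex, and that of the 6 members was 0.76 and 0.92. The log2 odds ratio of Cntnap2 was higher than that of 79.3% of genes in the KO and 78.5% in mi5 cortex. In a separate run every gene was read from its row with fewest calls, which for Cntnap2 is the short transcript. There its log2 odds ratio was higher than that of 82.6% of genes in the KO but only 38.5% in mi5 cortex, below the median gene. The log2 odds ratio of Cntnap5a, the lowest of the long members, was higher than that of 62.8% and 57.8%. Cntnap1 lay low in both, above 10.3% and 17.9% of genes.

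**Figure D2:**
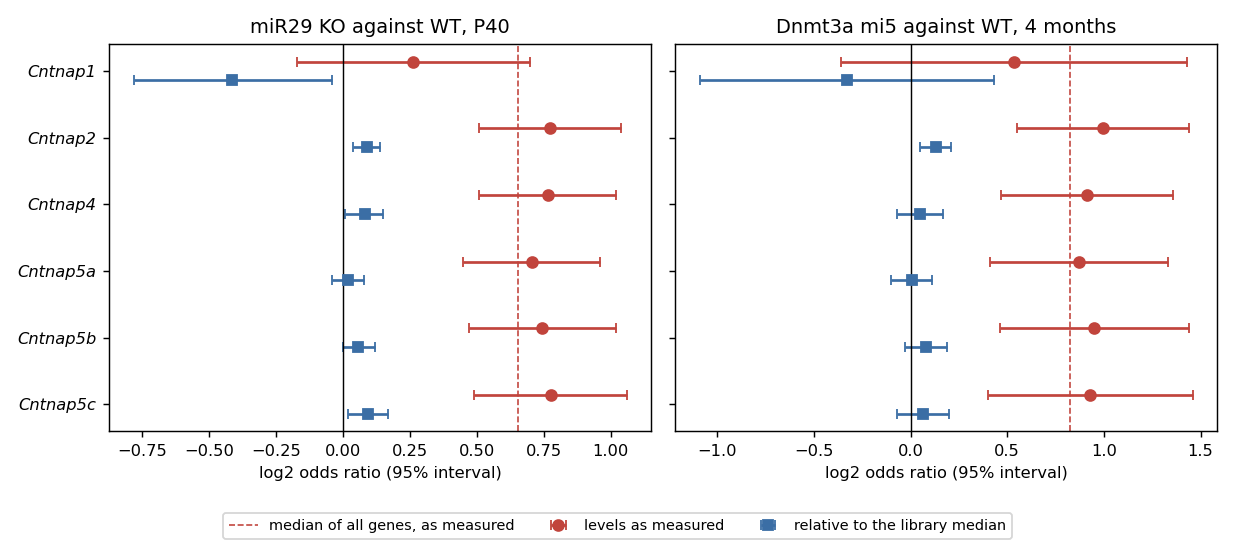
Log2 odds ratio (x axis, with 95% interval) of each Cntnap gene in the KO (left) and mi5 (right) cortex against WT of the same age; circles are levels as measured, squares are relative to the library median, and the dashed line is the median of all genes. The circles of the long genes lie at or above the dashed line, the squares of the long genes lie between 0.005 and 0.131, and those of Cntnap1 lie at -0.414 and -0.331.

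Dividing each level by the median gene level of its own library removed most of the spread between P40 libraries of a group in the 5 long genes. The coefficient of variation of Cntnap2 over the 4 KO libraries was 16.0% as measured and 1.03% after division, and over the 4 WT libraries at P40 it was 12.3% and 3.70%. For Cntnap1, with few calls, it was 16.6% and 12.4% in the KO, and 20.6% and 26.8% in WT. The P40 library differences in the long genes were thus largely shared with the median gene.

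On this relative scale Cntnap2 stood at 1.44 to 1.47 times the library median in the KO and 1.33 to 1.44 in WT at P40. The lowest KO library, at 1.438, lay just under the highest WT library, at 1.439. In the model with each library centred on its median, Cntnap2 rose above the common shift with a log2 odds ratio of 0.09 (SE 0.0223, adjusted p = 0.0247), a call made for 1.04% of all genes, while 3.55% were lower. Such calls were more frequent among the 198 genes with most calls, to which Cntnap2 belongs, with 19 higher and 25 lower. The call of Cntnap2 was lost without WT replicate 1 or 4 of P40, and without KO replicate 1, 2 or 3 (adjusted p from 0.0608 to 0.118). At 4 months Cntnap2 stood at 1.40 and 1.41 in mi5 cortex and 1.29 and 1.297 in WT, with a centred log2 odds ratio of 0.13 (SE 0.0375, adjusted p = 0.228).

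Cntnap4 had relative levels of 1.35 to 1.40 in the KO and 1.27 to 1.33 in WT at P40, without overlap, as did 3.21% of all genes (7.35% lay wholly below WT), but its centred log2 odds ratio of 0.08 did not pass (adjusted p = 0.159). Those of Cntnap5a (0.02), Cntnap5b (0.06) and Cntnap5c (0.09) did not pass either (adjusted p = 0.754, 0.261 and 0.13). Cntnap5c passed without WT replicate 2 of P40, at 0.14 (adjusted p = 0.032). Cntnap1 was at 0.363 to 0.492 times the library median in the KO and 0.448 to 0.809 in WT, and its centred log2 odds ratio was -0.41 (SE 0.178, adjusted p = 0.189), so its direction turned with centring. Before adjustment 4 of the 6 members had a p under 0.05 in this model, Cntnap2, Cntnap4 and Cntnap5c higher and Cntnap1 lower. So had 4093 of all 19826 genes, 1232 higher and 2861 lower. In mi5 cortex both relative levels lay above both WT values in Cntnap2, Cntnap5b and Cntnap5c (16.4% of all genes) and below them in Cntnap1 (27.6%). No member passed there after centring, and the centred log2 odds ratios ran from -0.33 for Cntnap1 to 0.13 for Cntnap2. By the same model 7 of all 19826 genes passed, all of them lower (0.0353%), and 1814 had an unadjusted p under 0.05, 607 higher and 1207 lower. Of the members only Cntnap2 was among the 1814.

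**Figure D3:**
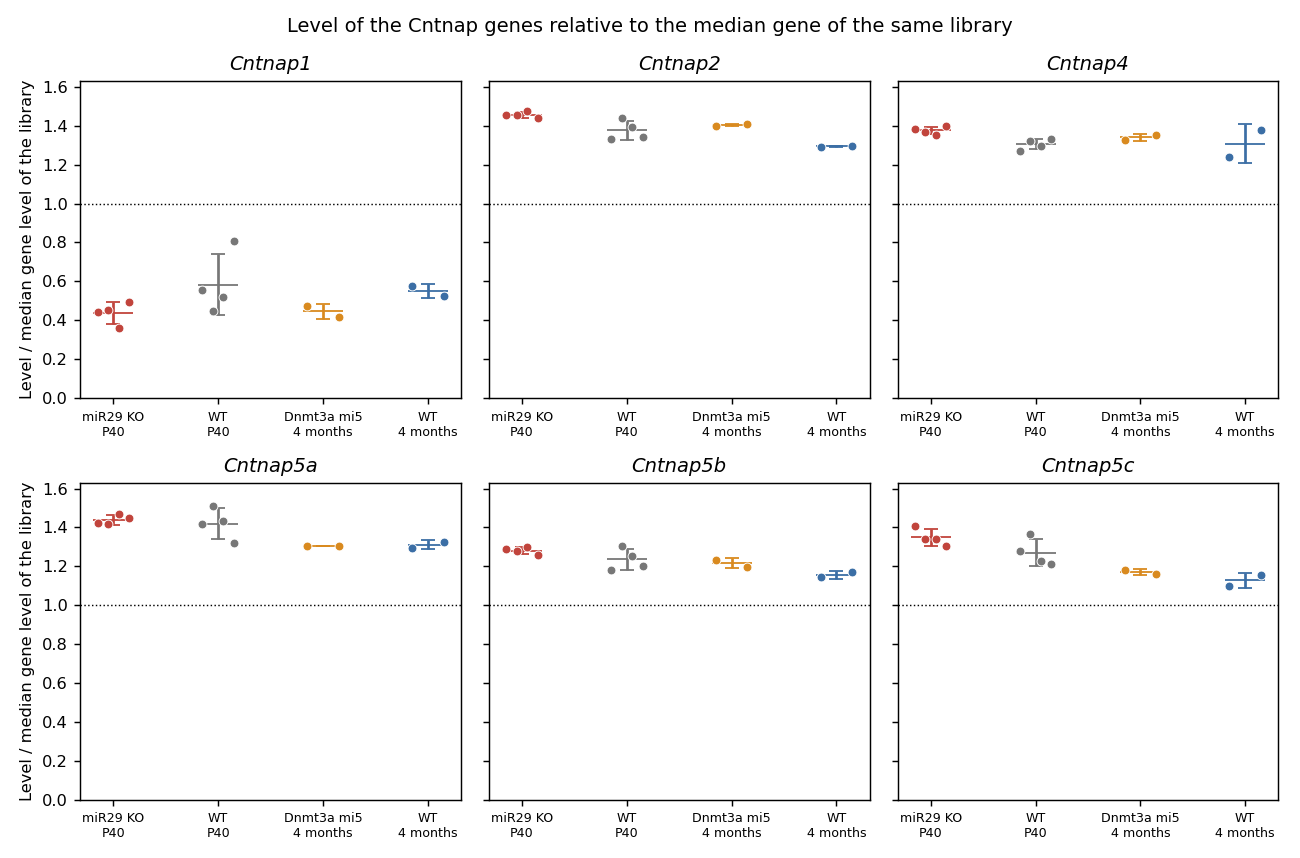
Level of each Cntnap gene divided by the median gene level of the same library (y axis, ratio), by group; points are libraries, bars give mean and SD, and the dotted line marks the median gene. The long genes lie between 1.10 and 1.51 in all libraries and Cntnap1 between 0.36 and 0.81.

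The order of the genes by level was close among the long members. In WT cortex at P40 the means were 1.86% ± 0.254 for Cntnap5a, 1.80% ± 0.222 for Cntnap2, 1.71% ± 0.161 for Cntnap4, 1.67% ± 0.219 for Cntnap5c, 1.62% ± 0.211 for Cntnap5b and 0.754% ± 0.155 for Cntnap1 (SD, n = 4 each). Since libraries shift together, neighbours in this order were compared by their ratio within each library. Cntnap5a exceeded Cntnap2 in 6 of 12 libraries, Cntnap4 exceeded Cntnap5c in 9 and Cntnap5c exceeded Cntnap5b in 7. For these 3 pairs the mean log2 ratio in WT at P40 was 0.04 to 0.05 and smaller than its SD, so they did not differ beyond their spread. By group, Cntnap5a exceeded Cntnap2 in 1 of 4 KO and 3 of 4 WT libraries at P40, and in 0 of 2 mi5 and 2 of 2 WT libraries at 4 months; that difference between groups was not tested.

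Cntnap2 exceeded Cntnap4 in 11 of 12 libraries, by a mean log2 ratio of 0.06 (SD 0.06 over 12 libraries), and exceeded Cntnap5b in 12 of 12, by 0.18 (SD 0.03). Cntnap5a exceeded Cntnap5b and Cntnap5c in 12 of 12 libraries. The gap to Cntnap1 was the widest: Cntnap5b had on average 2.48 times its level, and more in 12 of 12 libraries. By group, Cntnap5c exceeded Cntnap5b in 4 of 4 KO and 3 of 4 WT libraries at P40, and in 0 of 2 mi5 and 0 of 2 WT libraries at 4 months. This difference in order was not tested, and age and the set of mice and libraries cannot be told apart in it.

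Whether the 2 mutants differed in their change was asked by the difference of the log2 odds ratios, mi5 minus KO. It was 0.22 for Cntnap2 (95% interval -0.30 to 0.74), 0.15 for Cntnap4 (-0.37 to 0.66), 0.17 for Cntnap5a (-0.36 to 0.70), 0.20 for Cntnap5b (-0.36 to 0.77), 0.15 for Cntnap5c (-0.45 to 0.75) and 0.27 for Cntnap1 (-0.72 to 1.26). None of the 6 passed (adjusted p = 0.998 each), as none of all 19826 genes did (0%), with 289 genes but no member at an unadjusted p under 0.05, and limma on percent levels called 3 genes and no member. These intervals, for levels as measured, are wide, so neither an equal change nor a moderate difference is shown. With libraries centred no member passed either. The centred intervals of the long genes were narrower, the narrowest at -0.05 to 0.13 in Cntnap2 and the widest at -0.19 to 0.12 in Cntnap5c. That of Cntnap1 was -0.76 to 0.93. Mutant and age go together here and cannot be told apart.

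Between the WT groups, the mean of every member was lower at 4 months than at P40, with differences of -0.0817 points in Cntnap1, -0.113 points in Cntnap4 and up to -0.289 points in Cntnap5c. Cntnap5c had 1.36% and 1.40% at 4 months, against 1.47% to 1.97% at P40, and Cntnap2 had 1.57% and 1.59%, against 1.61% to 2.07%. In Cntnap2, Cntnap5b and Cntnap5c both 4-month libraries lay below every P40 library, as in 12.1% of all genes (above in 6.03%), and the same 3 genes did so in level over library median (8.93% of all genes, and above in 14.9%). The log2 odds ratios, 4 months over P40, ran from -0.28 in Cntnap5c to -0.10 in Cntnap4, and that of all genes had a median of -0.08. No member passed in levels as measured (adjusted p = 1 for each), while 26 of all genes passed and were higher (0.131%) and 0% were lower, and 462 genes but no member had an unadjusted p under 0.05. With libraries centred, no member passed either, where 1.36% of all genes were higher and 0.131% lower. In that model 2029 of all 19826 genes had an unadjusted p under 0.05, of which 1378 were higher and 651 lower. So did 4 of the 6 members, all lower at 4 months, with log2 odds ratios of -0.10 in Cntnap2 (adjusted p = 0.231), -0.13 in Cntnap5a (0.255), -0.11 in Cntnap5b (0.442) and -0.19 in Cntnap5c (0.16). Without WT replicate 4 of P40 the centred value of Cntnap5a passed, at -0.16 (adjusted p = 0.0495). Age and the set of mice and libraries cannot be told apart in this comparison.

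The short transcript of Cntnap2 covers the last part of the gene and held 28439 to 45530 calls per library, 2.59% to 3.20% of those of the long transcript. Subtracting its calls from those of the long transcript, a step chosen after the values were seen, gave the level in the rest of the gene. The short part had 3.75% ± 0.536 in the KO and 2.21% ± 0.247 in WT at P40 (SD, n = 4 each), and the rest had 2.999% ± 0.483 in the KO and 1.79% ± 0.222 in WT. At 4 months the short part had 3.83% and 3.73% in mi5 cortex and 2.33% and 2.23% in WT, and the rest had 3.08% and 3.08% in mi5 cortex and 1.57% and 1.55% in WT. The short part was thus higher than the rest in all 12 libraries.

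The ratio of the short part to the rest was 1.21 to 1.31 in the KO and 1.18 to 1.29 in WT at P40, 1.24 and 1.21 in mi5 cortex and 1.49 and 1.44 in WT at 4 months. The 2 WT libraries of 4 months thus lay above the other 10. In the same 2 libraries the short part also took the largest shares of the calls, 3.05% and 3.20%, against 2.59% to 2.87% elsewhere, and the part of this in the ratio was not tested. The change of the short transcript was a log2 odds ratio of 0.80 in the KO (SE 0.116, adjusted p = 6.16e-05) and 0.75 in mi5 cortex (SE 0.182, adjusted p = 0.00378), against 0.78 and 0.997 for the long transcript.

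**Figure D4:**
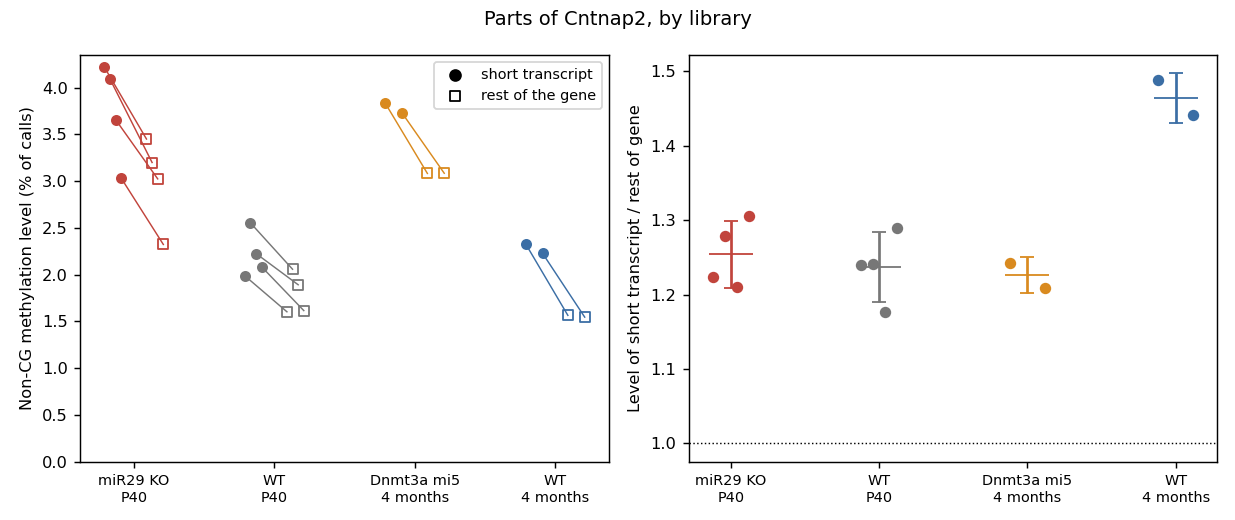
Left, level (y axis, percent of calls) of the short transcript of Cntnap2 (circles) and of the rest of the gene (open squares), joined by library; right, their ratio per library with mean and SD. The short part is higher in every library, and the ratio is 1.44 and 1.49 in WT at 4 months against 1.18 to 1.31 elsewhere.

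Partners of these proteins and related genes were taken from a list of 32 genes, mainly for contactins, axo-glial junction proteins, Kv1 channels with their beta subunits, and scaffolds of the axon and synapse. The list, called partner genes here, also holds genes outside these classes, among them Ugt8a, Gal3st1, Lgi1, Lgi3, Adam22 and Adam23. Not every gene on it thus encodes a partner. Of the 32 genes, 27 rose in the KO (84.4%, against 76.5% of all genes) and 24 in mi5 cortex (75%, against 58.8%), and none fell, with median log2 odds ratios of 0.61 and 0.80 against 0.65 and 0.83 for all genes. Relative to the library medians, Cntn5 and Cntn6 were higher and Kcnab2, Nrcam and Sptan1 lower in the KO, 5 genes named because they passed, where 1.04% of all genes were higher and 3.55% lower, and none passed in mi5 cortex. Cntn1, which encodes the partner of Caspr, had 1.99% ± 0.328 in the KO and 1.28% ± 0.115 in WT (SD, n = 4 each, adjusted p = 3.71e-04), and 2.35% in mi5 cortex against 1.36% in WT (adjusted p = 0.00449). Cntn2, which encodes the partner of Caspr2, had 1.85% ± 0.219 in the KO and 1.31% ± 0.277 in WT (adjusted p = 0.00395), and 2.12% in mi5 cortex against 1.19% in WT (adjusted p = 0.0213). Cntn4, a contactin of axon guidance, had 2.68% in the KO and 1.73% in WT, and 2.70% in mi5 cortex and 1.47% in WT (adjusted p = 8.92e-05 and 0.003).

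Nfasc, which encodes neurofascin, had 1.30% in the KO and 0.885% in WT (adjusted p = 0.00151), and 1.36% in mi5 cortex and 0.817% in WT (adjusted p = 0.0254). Epb41l3, which encodes the membrane skeleton protein 4.1B, had 2.06% in the KO and 1.40% in WT (adjusted p = 8.65e-04), and 2.34% in mi5 cortex and 1.45% in WT (adjusted p = 0.0177). Of the listed Kv1 channel genes Kcna1, Kcna2 and Kcna4, Kcna4 rose in the KO, with 1.42% in the KO and 0.923% in WT (adjusted p = 0.0142), and none passed in mi5 cortex, where Kcna4 had 1.65% against 1.02% in WT (adjusted p = 0.0779). Of the listed beta subunit genes Kcnab1 and Kcnab2, Kcnab1 rose in both mutants, with 2.76% in the KO and 1.76% in WT (adjusted p = 9.68e-05), and 2.85% in mi5 cortex and 1.69% in WT (adjusted p = 0.00564). Kcnab2 passed in neither, with 1.155% in the KO and 0.984% in WT (adjusted p = 0.126), and 1.41% in mi5 cortex and 0.945% in WT (adjusted p = 0.0697). Kcna4, Kcnab1 and Kcnab2 are named after their values were seen. Kcna1 had 1.37% in the KO and 1.02% in WT, and 1.28% in mi5 cortex and 0.989% in WT (adjusted p = 0.0702 and 0.453). Kcna2 had 0.892% in the KO and 0.724% in WT, and 1.07% in mi5 cortex and 0.691% in WT (adjusted p = 0.219 and 0.168).

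Cntnap3, the remaining member of the family in mouse, rose in both mutants. Cntnap3 had 1.71% ± 0.300 in the KO and 1.01% ± 0.155 in WT at P40 (SD, n = 4 each; log2 odds ratio 0.79, adjusted p = 2.40e-04), and 1.77% in mi5 cortex and 1.04% in WT (adjusted p = 0.0154). Of the 198 genes with most calls, the group to which 4 of the members belong, 192 rose in the KO and 192 in mi5 cortex (97.0% each, against 76.5% and 58.8% of all genes), with median log2 odds ratios of 0.68 and 0.88. Relative to the common shift, 19 of these genes were higher and 25 lower in the KO (of all genes, 1.04% and 3.55%).

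**Figure D5:**
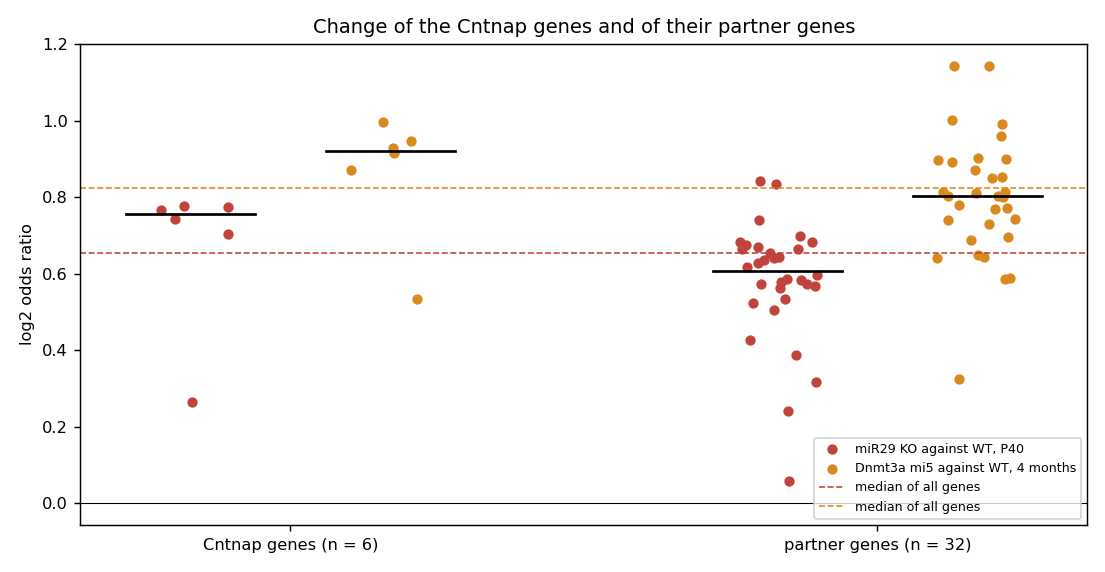
Log2 odds ratio (y axis) of each gene in the KO (red, left of each pair) and mi5 cortex (orange) against WT of the same age, for the 6 Cntnap genes and the 32 partner genes; points are genes, black bars are list medians and dashed lines are the medians of all genes. The partner genes spread from 0.06 to 0.84 in the KO, and Cntnap1 lies apart below the other members.

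The genes with levels closest to each member in all 12 libraries were found among 4084 genes with at least 20000 calls in every library, by the root mean square difference of log2(percent + 0.1). For Cntnap2 they were Xrcc4 (0.028), a DNA repair gene, and Elf1 (0.034), an ETS transcription factor gene. Xrcc4 averaged 3.04% in the KO and 1.79% in WT at P40, and 3.21% in mi5 cortex and 1.56% in WT at 4 months. For Cntnap4 they were the glutamate receptor gene Grm8 (0.035) and Galntl6 (0.037), for Cntnap5a Wrn (0.038) and Usp29 (0.041), for Cntnap5b Mctp1 (0.036) and Adgrg6 (0.039), and for Cntnap5c Sis (0.048) and Zbbx (0.049). None of the closest genes was another member. For Cntnap1 the closest were Atp6v1a (0.134), a subunit gene of the vacuolar proton pump, and Luc7l2 (0.150), with levels of 0.867% and 0.919% in the KO and 0.708% and 0.717% in WT at P40. Cntnap1 itself had only 3334 to 9915 calls per library, so its own counting error enters these larger distances, to an extent that was not tested.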

How the data were processed

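Cortex DNA was fragmented by sonication with a lambda DNA spike-in before bisulfite sequencing, per the labels' protocols. A cytosine that escaped conversion would count as methylated, and no conversion rate per library entered the levels. Its share in the levels was not tested. With the 1st percentile of gene levels subtracted in each library, 14653 of 19826 genes were higher and 52 lower in the KO. In mi5 cortex 11084 were higher and 0 lower. BSMAP and mm9 are named in the submitters' processing notes, with no version. The 12 deposited tables have 36672 rows, 1 per RefSeq transcript, each with a count of methylated calls (whole numbers) and with total calls of which 35.7% to 62.2% are whole, by a step not given in the sources used here. These deposited totals were handled like expected counts and rounded to whole calls. Symbols came from RefSeq (GRCm38.p6). Rows without a symbol (300) or with an identifier that repeats (1395) were dropped, and each gene was read from its row with most calls.

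Group means over the 12 libraries were fitted to each gene in R 4.3.3 by quasi-binomial logistic regression, with dispersions shrunk by squeezeVar of limma 3.58.1 (trend and robust options). The threshold was a Benjamini-Hochberg adjusted p of 0.05 over 19826 genes, and effects are log2 odds ratios. Centring enters the median log odds of a library as its offset. In every pair of replicates the mean chi-square over genes was at least 2.73, so no pair differed by counting error alone. That check cannot tell 2 libraries of 1 animal from libraries of 2 animals. Other steps ran in Python 3.11.15 with numpy 2.4.6, pandas 2.3.3, scipy 1.17.1, statsmodels 0.14.6 and matplotlib 3.10.9. The members and lists were chosen with earlier results of these data known. Named genes are the members, 8 relatives and partners, and the 2 genes closest in level to each member; others are named as list members. Some further genes are not reported here. Alternatives covered the call minimum, scale, pseudocount, centring, background subtraction, replicate block, moderation, transcript row, Y-gene coverage and leaving out each library.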

Additional observations from a re-analysis of the deposited data

How the results depend on the processing

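The P40 calls of the 5 long genes held in every alternative run except centring, under which Cntnap2 alone passed, and those at 4 months in every alternative except centring, the libraries with Y-gene coverage, and, for Cntnap5c, 1 library left out. After centring, the P40 log2 odds ratios were 0.083 (Cntnap4), 0.020 (Cntnap5a), 0.058 (Cntnap5b) and 0.093 (Cntnap5c), not past the threshold, and that of Cntnap1 reversed to -0.414. At 4 months they were 0.131 (Cntnap2), 0.049 (Cntnap4), 0.005 (Cntnap5a), 0.082 (Cntnap5b), 0.063 (Cntnap5c) and, reversed, -0.331 (Cntnap1); centring removes the shift common to all genes. With Y-gene coverage the 4-month groups keep 1 library each, assumed to vary like the other groups, and the values were 0.988, 0.991, 0.871, 0.926 and 0.931 (Cntnap2, Cntnap4, Cntnap5a, Cntnap5b, Cntnap5c), with adjusted p from 0.111 to 0.137; 1 of all genes was called, against 11649 with all libraries. With a library left out, Cntnap5c ran from 0.905 to 0.951 at 4 months. Relative to the library median it ran at P40 from 0.068 to 0.135, Cntnap2 from 0.071 to 0.114 and Cntnap5a from -0.012 to 0.054, and at 4 months Cntnap4 ran from -0.034 to 0.126 and Cntnap5a from -0.015 to 0.023. With the pooled level of all genes as centre, an alternative chosen after seeing the data, Cntnap2 had 0.104 at P40 (adjusted p = 0.00693). The difference mi5 minus KO reversed for Cntnap2 with its short transcript (-0.043) and after centring for Cntnap4 (-0.033), Cntnap5a (-0.015) and Cntnap5c (-0.030). The change of WT between ages reversed for Cntnap2 with its short transcript (0.049) and for Cntnap1 without WT replicate 4 of P40 (0.001), whose range with a library left out was -0.254 to 0.001. The cause was not tested. Over all genes the 4-month count of rises ran from 4672 (without WT replicate 1 of 4 months) to 13328 (without KO replicate 4) with a library left out, and was 6308 without WT replicate 2 and 7710 without mi5 replicate 1 of 4 months; after centring it was 0, and that at P40 was 207 against 15167.

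Across genes, the deviations of same-numbered libraries correlated at -0.0541 to 0.109 at P40 and at -0.0886 at 4 months. Such a correlation leaves out a shift shared by all genes of a library. With 2 libraries a group, all pairs of 4 months give the same value but for its sign. The check thus cannot decide on pairing, and the numbers were not taken as pairs. With the replicate block the same 5 members passed in both mutants, Cntnap2 at 0.776 in the KO and 0.997 in mi5 cortex. Of all 19826 genes, 15224 were higher and 29 lower in the KO in that run, and 12339 higher and 1 lower in mi5 cortex. A minimum of 5000 calls left Cntnap1 out. Depth limits Cntnap1, with 3334 to 9915 calls per library, more than the long genes.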
